A study of Mus musculus with 2 samples.

Results

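The killing machinery of lymphocytes was followed through 8 genes, Gzma, Gzmb, Gzmk, Gzmm, Prf1, Nkg7, Ctsw and Fasl, each taken by its symbol from a table of 27998 genes. They were measured in single immune cells of the pancreatic islets. The mice were females of NOD/ShiLtJ, an inbred strain prone to autoimmune diabetes. Cells positive for CD45.1, the form of the pan-leukocyte protein CD45 that this strain carries, were sorted by flow cytometry at 12 weeks and at 7 weeks of age. No other treatment or genotype is named, the labels give both ages the same protocols, and the number of mice behind a library is not given in the sources used here. Each age is 1 droplet library of 3′ transcript ends (10x Genomics Chromium), so no test is possible and every difference is one between these 2 libraries.

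Cytotoxic lymphocytes store killing proteins in granules and empty them onto a target cell. Perforin (Prf1) opens the target membrane and lets granzymes in, serine proteases that differ in the residue they cut after. In NOD islets, CD8 T cells that recognise beta cell peptides are the lymphocytes best known for direct killing of beta cells. Natural killer cells and other innate lymphocytes carry the same granules.

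The members fall into 4 roles. Gzma and Gzmk are trypsin-like granzymes, Gzmb is the granzyme that cuts after aspartate and activates caspases, and Gzmm cuts after methionine or leucine. Prf1 is the pore former. Nkg7, a membrane protein of the granule, and Ctsw, a papain-like cysteine protease of natural killer and CD8 T cells, are structural or accessory components. Fasl encodes the death ligand that engages Fas on the target and acts without granules.

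Granzymes share a protein fold, so reads could in principle be shared between them. The coding stretch around the catalytic serine is shown because it holds the catalytic motif that the 4 share, from GENCODE M21 transcripts on GRCm38, with the 12 bases that encode Gly-Asp-Ser-Gly in capitals.
Gzma: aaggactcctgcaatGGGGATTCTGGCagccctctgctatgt
Gzmb: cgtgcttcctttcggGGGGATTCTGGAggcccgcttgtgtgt
Gzmk: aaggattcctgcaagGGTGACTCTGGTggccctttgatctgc
Gzmm: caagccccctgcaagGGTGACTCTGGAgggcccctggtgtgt
Gzma and Gzmk matched at 32 of 42 bases, the closest pair of the 4, and Gzmb and Gzmk at 25, the most distant. At the transcript ends that this assay reads, none of the 451 to 902 stretches of 50 bases from the last 500 bases of each member's transcripts occurred in another gene, so a read of 50 bases or more from these ends names 1 gene in that annotation.

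On GRCm38, Gzma lies at chr13:113093825-113100981 and Gzmk at chr13:113171608-113225908, both on the minus strand of the same chromosome. Gzmb lies at chr14:56258838-56262260 on the minus strand, and Gzmm at chr10:79689020-79695261 on the plus strand. Prf1 is at chr10:61297833-61304680 and Nkg7 at chr7:43437073-43438249, both on the plus strand. Ctsw is at chr19:5465043-5468507 and Fasl at chr1:161780689-161788495, both on the minus strand. The 150 bases before the RefSeq start of 3 granzyme genes (GRCm38.p6) are shown because these 3 carry the comparisons between CD8 T, CD4 T and Ncr1 cells. Capitals mark matches, on either strand, to TGTGGT (bound by runt factors), AGGTGT (T-box factors) and TGANTCA (AP-1). A match on the reverse strand reads as its complement, ACCACA or ACACCT.
Gzma, chr13:113100982-113101131, minus strand: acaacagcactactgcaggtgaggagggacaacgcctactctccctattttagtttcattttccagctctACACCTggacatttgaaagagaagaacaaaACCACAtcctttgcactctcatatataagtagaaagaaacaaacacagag
Gzmb, chr14:56262335-56262484, minus strand: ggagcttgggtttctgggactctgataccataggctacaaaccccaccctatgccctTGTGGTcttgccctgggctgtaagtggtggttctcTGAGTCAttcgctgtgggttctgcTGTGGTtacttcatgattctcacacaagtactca
Gzmk, chr13:113180966-113181115, minus strand: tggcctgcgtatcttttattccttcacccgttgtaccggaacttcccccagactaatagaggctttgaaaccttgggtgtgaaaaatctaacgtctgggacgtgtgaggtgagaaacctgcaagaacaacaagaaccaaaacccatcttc
The window of Gzma held 1 runt and 1 T-box match, that of Gzmb 2 runt matches and 1 AP-1 match, and that of Gzmk none of the 3. Of 32475 windows of this length, 8.28% held the runt letters, 6.89% the T-box letters and 4.23% the AP-1 letters. A match is a run of letters and not a bound site.

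After filtering, the 12 week library kept 2741 cells and the 7 week library 1099. The median cell held 4932 unique molecular identifiers (UMIs, one per captured transcript) at 12 weeks and 5636 at 7 weeks. Of all barcodes, 2 occurred in both libraries. CD8 T cells were defined by at least 2 UMIs of Cd8a and Cd8b1, none of Cd4 and at least 1 of the CD3 genes, and numbered 460 at 12 weeks and 171 at 7 weeks. CD4 T cells, with a Cd4 UMI, none of Cd8 and at least 1 of CD3, numbered 826 and 356 at 12 and 7 weeks. Cells with an Ncr1 UMI that met no other class, called Ncr1 cells here, numbered 64 at 12 weeks and 73 at 7 weeks. B cells, with at least 2 Cd79a UMIs, numbered 659 and 180 at 12 and 7 weeks. A further 16 cells at 12 weeks and 3 at 7 weeks met a B and a T rule and were left out, and 716 and 316 cells at 12 and 7 weeks met no rule.

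All 7 T cell markers were found in at least 10% of CD8 T and of CD4 T cells at both ages, and all 6 B cell markers in the B cells. The Ncr1 cells held 6 of 7 natural killer markers at that frequency and all 7 markers of type 1 innate lymphoid cells, and a CD3 UMI was present in 54 of 64 of them at 12 weeks and in 59 of 73 at 7 weeks. They are therefore named by their rule and not as natural killer cells. Ncr1, in both lists of innate markers, and Cd79a, in the B cell list, were present by the class rules. The CD3 genes of the T cell list also enter both T cell rules. Transcripts of pancreatic acinar cells, which are not immune cells, were higher at 12 weeks in every class, from 1.13 to 1.56 UMIs per 10000 at 12 weeks against 0.127 to 0.477 at 7 weeks. Levels are CPM, the UMIs of a gene per 1000000 UMIs summed over its class, with an exact Poisson 95% interval for sums and an exact binomial one for ratios and shares. Such intervals cover counting error and leave out any spread between mice or libraries.

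Of the named classes, CD8 T cells held the largest share of Nkg7, Ctsw, Gzmb and Gzmk transcripts at both ages, while Gzma came mostly from a small number of Ncr1 cells at 7 weeks and from CD8 T and Ncr1 cells at 12 weeks. CD8 T cells made up 16.8% of the cells at 12 weeks and 15.6% at 7 weeks, and held 66.5% and 63.2% of all Gzmb UMIs, 55.6% and 66.1% of Gzmk, and 57.6% and 45.6% of Nkg7 at 12 and 7 weeks. The Ncr1 cells, a share of 2.33% at 12 weeks and 6.64% at 7 weeks, held 35.8% and 70.9% of all Gzma UMIs at 12 and 7 weeks. CD8 T cells held 42.7% of Gzma UMIs at 12 weeks and 14% at 7 weeks.

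**Figure D1:**
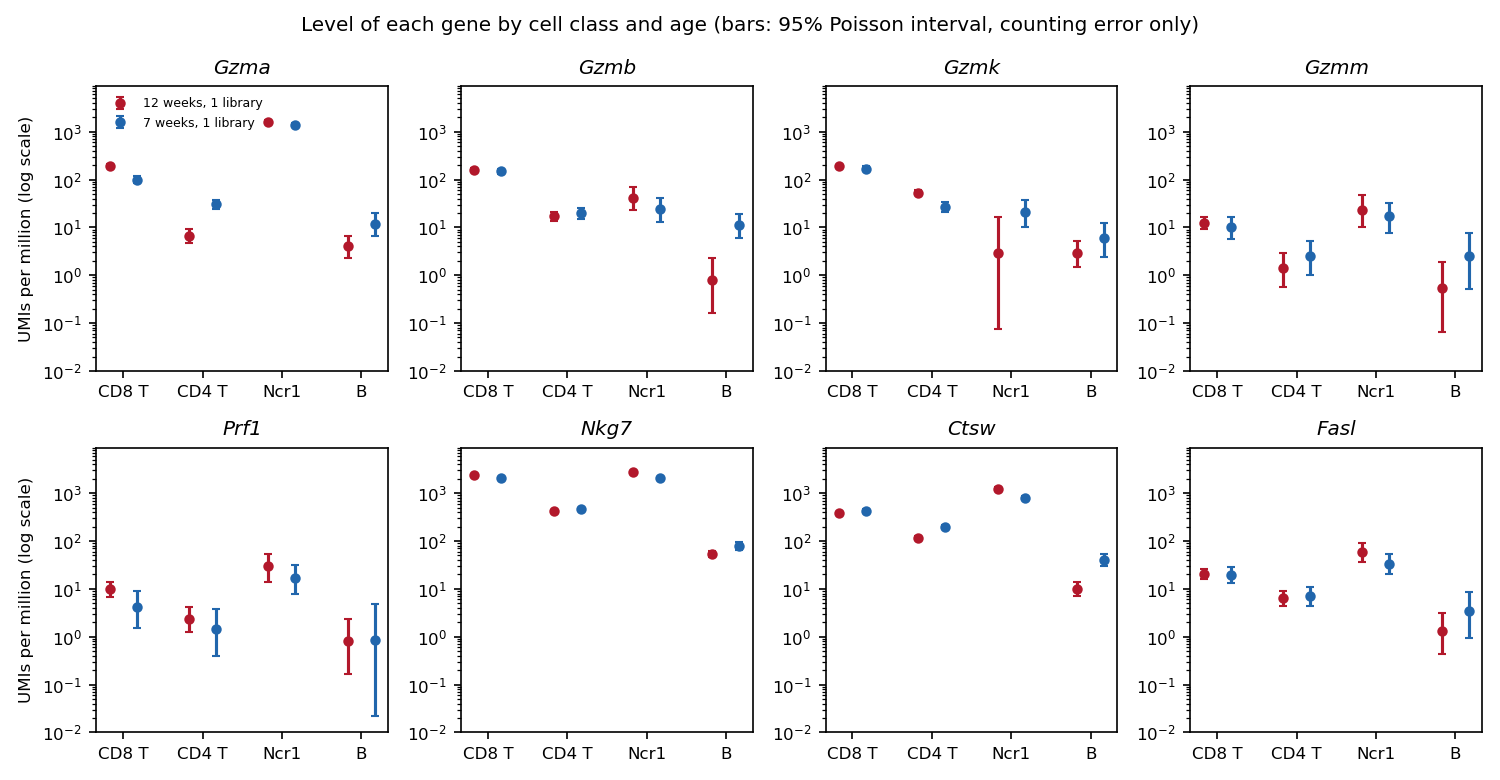
Level of each of the 8 genes (CPM of the class sum, log scale) in CD8 T, CD4 T, Ncr1 and B cells, with 12 weeks in red left of 7 weeks in blue, 1 library each, and bars for the 95% Poisson interval of counting error. Gzma is highest in Ncr1 cells, at 1624 CPM at 12 weeks against 1382 CPM at 7 weeks, Gzmk is highest in CD8 T cells, and all 8 genes are lowest in B cells or, for Gzmk at 12 weeks and Gzmm at 7 weeks, as low in another class.

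Nkg7 marked nearly every CD8 T cell. It reached 2352 CPM in CD8 T cells at 12 weeks and 2039 CPM at 7 weeks, and ranked 90th and 102nd by UMIs among the genes of that class at 12 and 7 weeks. With every cell thinned to 3000 UMIs so that depth is equal, 92.6% of CD8 T cells held an Nkg7 UMI at 12 weeks (interval 89.8 to 94.8) and 94.5% at 7 weeks (89.8 to 97.4). B cells, which should lack it, gave 10.9% at both ages, taken here as the background level of detection. The median B cell held 4678 UMIs at 12 weeks and 5294 at 7 weeks, close to the CD8 T medians of 5380 and 6233 at 12 and 7 weeks.

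Ctsw was found in a smaller share of CD8 T cells at 12 weeks, 59.3% (54.7 to 63.9), than at 7 weeks, 70.6% (62.9 to 77.4). In B cells the thinned Ctsw share was 2.73% at 12 weeks and 8.62% at 7 weeks. Its level in CD8 T cells was 383 CPM at 12 weeks against 426 at 7 weeks, for a ratio of 0.901 (0.819 to 0.992). Gzmk was found in 25.7% of CD8 T cells at 12 weeks (21.7 to 29.9) and 26.4% at 7 weeks (19.8 to 33.8), against 0.759% and 1.15% of B cells at 12 and 7 weeks. Gzmb was found in 8.91% of CD8 T cells at 12 weeks (6.47 to 11.9) and 11.7% at 7 weeks (7.17 to 17.6), against 0.152% and 0.575% of B cells at 12 and 7 weeks. The intervals of the 2 ages overlap for Ctsw, Gzmk and Gzmb.

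Gzma, Fasl, Gzmm and Prf1 were each found in under 5% of thinned CD8 T cells at either age. Gzma was in 4.35% at 12 weeks and 4.29% at 7 weeks, and Fasl, also in 20 and 7 cells, had the same shares. Gzmm was in 3.48% at 12 weeks and 2.45% at 7 weeks. Prf1 was in 2.39% (1.2 to 4.24) at 12 weeks and 1.23% (0.149 to 4.36) at 7 weeks, against 0.303% of B cells at 12 weeks and 0 of 174 at 7 weeks, where 0 cells allow up to 2.10%. Prf1 therefore could not be told apart from background in CD8 T cells at 7 weeks at this depth, where the whole class held 6 Prf1 UMIs.

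The comparison of ages asks which components differ between islets sampled at 12 and at 7 weeks. In CD8 T cells, Gzma was higher at 12 weeks with 191 CPM against 98.7 CPM at 7 weeks, a ratio of 1.93 (1.61 to 2.33). Prf1 had 9.88 CPM at 12 weeks against 4.09 at 7 weeks, or 2.42-fold (1.0 to 7.05). Those were the 2 members of 8 that were 1.5-fold or more higher, and none was 1.5-fold or more lower. Among 10036 genes with at least 10 UMIs in the class, 12.1% were 1.5-fold or more higher and 11.4% were 1.5-fold or more lower, and the median member had a log2 ratio of 0.19 against 0.03 for all these genes. Without the 5 richest of the 460 cells at 12 weeks and of the 171 at 7 weeks, the Gzma ratio in CD8 T cells was 3.78. That left under 10 Gzma UMIs at 7 weeks. The ratio was 1.15 with cells weighted equally, 0.783 without cells over 20000 UMIs and 0.453 without cycling cells. The last rests on 1 cell at 7 weeks, and without the richest remaining cell of each library it was 1.60 (0.640 to 4.77), so the size and direction of this ratio depend on single cells.

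The other members of CD8 T cells differed less. Gzmb, at 0.504 without cells over 20000 UMIs, had 160 CPM at 12 weeks against 148 at 7 weeks, or 1.08-fold (0.921 to 1.27). Gzmk had 190 CPM at 12 weeks against 169 at 7 weeks, or 1.13-fold (0.971 to 1.31), and Fasl 20.3 and 19.7 CPM at 12 and 7 weeks, a ratio of 1.03 (0.660 to 1.65). Nkg7 was 1.15-fold higher at 12 weeks (1.11 to 1.2). The interval of the ratio includes 1 for Gzmb, Gzmk, Gzmm and Fasl.

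The Gzma and Gzmb sums of CD8 T cells rested on a handful of cells. The 5 richest cells accounted for 89.2% of 657 Gzma UMIs at 12 weeks and for 94.5% of 145 at 7 weeks. The 5 highest cells at 12 weeks held 278, 166, 60, 42 and 40 Gzma UMIs, and the 3 highest at 7 weeks held 97, 23 and 14. None of these cells had an Ncr1 or Klrb1c UMI, and all of them had Cd8a, Cd8b1, Cd3e and Nkg7 UMIs. For Gzmb the top 5 cells held 57.2% of the sum at 12 weeks and 64.2% at 7 weeks. For Gzmk the top 5 cells held 16.4% at 12 weeks and 26.2% at 7 weeks, so that its level was spread over far more cells.

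**Figure D2:**
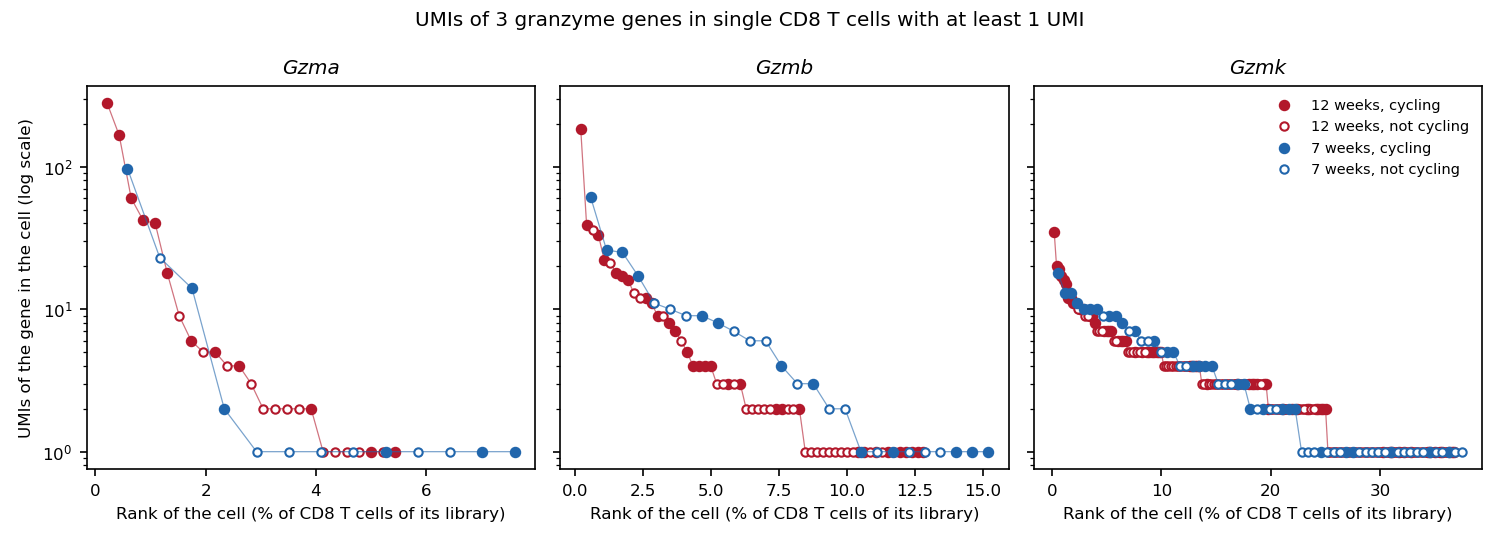
UMIs of Gzma, Gzmb and Gzmk (log scale) in each CD8 T cell that holds at least 1, ranked within its library (rank as % of that library's CD8 T cells), with 12 weeks in red, 7 weeks in blue, and filled points for cycling cells. The Gzma curve drops from 278 UMIs at 12 weeks and 97 at 7 weeks to under 10 within the first 3% of cells, while the Gzmk curve is flatter and runs to over 30% of cells.

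The CD8 T cells with the most Gzma also carried Gzmb and Gzmk, while Gzmm was found in 2 of 6 of them at 12 weeks and 0 of 3 at 7 weeks. At 12 weeks 6 cells held at least 10 Gzma UMIs, and all 6 were cycling and held Gzmb, Gzmk, Nkg7 and Ctsw. At 7 weeks 3 cells did, of which 2 were cycling and all 3 held Gzmb, Gzmk, Nkg7 and Ctsw. The single richest Gzmb cell, at 12 weeks, had 185 Gzmb and 42 Gzma UMIs among 22203. CD8 T cells with over 20000 UMIs numbered 23 at 12 weeks, all cycling, and 10 at 7 weeks, and they held 385 and 1 Gzma UMIs and 287 and 1 Gzmb UMIs at 12 and 7 weeks. Without them, as an alternative chosen after seeing the data, the 12 over 7 week ratio in CD8 T cells was 0.783 for Gzma and 0.504 for Gzmb, below 1 in both cases. Whether some of these cells are doublets of 2 CD8 T cells was not tested.

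Cycling CD8 T cells, defined by at least 5 UMIs over 20 cell cycle genes, held more Gzma, Gzmb and Gzmk transcripts, relative to all their UMIs, than the others in both libraries. They made up 21.7% of CD8 T cells at 12 weeks (18.1 to 25.8) and 27.5% at 7 weeks (20.9 to 34.8). Gzmb had 284 CPM in cycling against 67.2 CPM in other CD8 T cells at 12 weeks, a ratio of 4.22 (3.46 to 5.18), and 223 against 79.1 CPM at 7 weeks, a ratio of 2.82 (2.08 to 3.86). Gzmk had 265 CPM in cycling against 134 CPM in other cells at 12 weeks, a ratio of 1.98 (1.69 to 2.32), and 242 against 100 CPM at 7 weeks, a ratio of 2.42 (1.84 to 3.21). Fasl had 34.5 CPM in cycling against 9.67 CPM in other cells at 12 weeks and 25.4 against 14.5 CPM at 7 weeks. These were 51 and 19 UMIs at 12 weeks. At 7 weeks they were 18 and 11 UMIs, too few to set a direction for Fasl beyond counting error. Gzma, Gzmb, Gzmk and Fasl were 1.5-fold or more higher in cycling cells at both ages, where 28.5% of all genes were at 12 weeks and 31.2% at 7 weeks.

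Gzma was the member with the largest ratio, 422 CPM in cycling against 17.3 CPM in other CD8 T cells at 12 weeks (24.4-fold, 17.3 to 35.5) and 163 against 38.2 CPM at 7 weeks (4.28-fold, 2.83 to 6.67). Without the 5 cells richest in Gzma in each group compared, the ratio was 4.84 at 12 weeks and 0.585 at 7 weeks. The 7 week value was left with under 10 Gzma UMIs over both groups, so it does not set a direction. Gzmb at 7 weeks had a ratio of 1.35 without its 5 richest cells and 1.06 when cycling was called by Mki67 or Top2a. Gzmm went the other way at 12 weeks, with 3.39 CPM in cycling against 19.3 CPM in other cells, from 5 and 38 UMIs. At 7 weeks Gzmm had 5.64 against 14.5 CPM, from 4 and 11 UMIs, too few to set a direction beyond counting error. Ctsw was also lower in cycling cells, at 0.749-fold at 12 weeks and 0.526-fold at 7 weeks. Nkg7 was 1.28-fold and 1.42-fold higher in cycling cells at 12 and 7 weeks. Gzmm at 12 weeks, and Gzmm and Ctsw at 7 weeks, were 1.5-fold or more lower, where 19.5% and 19.2% of all genes were at 12 and 7 weeks.

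**Figure D3:**
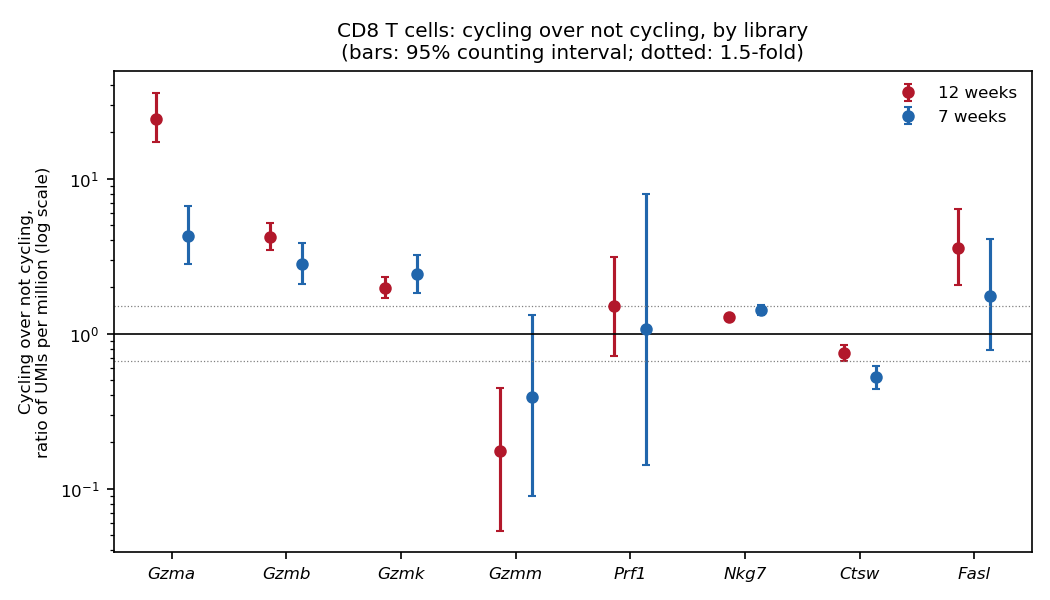
Ratio of CPM in cycling over not cycling CD8 T cells (log scale) for each gene, with 12 weeks in red left of 7 weeks in blue, 1 library each, bars for the 95% counting interval and dotted lines at 1.5-fold. Gzma, Gzmb and Gzmk lie above 1.5-fold in both libraries, and Gzmm and Ctsw below 1.

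Among cycling CD8 T cells Gzma was 2.58-fold higher at 12 weeks (2.11 to 3.18), and among the CD8 T cells that were not cycling it was 0.453-fold of the 7 week level (0.268 to 0.771). The value below 1 was carried by 1 cell at 7 weeks, which held 23 of 29 Gzma UMIs, with 1 UMI in each of 6 other cells, against 34 UMIs in 13 cells at 12 weeks. Without the richest such cell in each library, an alternative chosen after seeing the data, the ratio was 1.60 (0.640 to 4.77), an interval that includes 1. Gzmk in CD8 T cells not cycling was 1.34-fold higher at 12 weeks (1.03 to 1.75). Cycling cells held about as many UMIs at both ages, with a median of 11735 at 12 weeks and 11027 at 7 weeks, against 5024 and 5589 in the other CD8 T cells at 12 and 7 weeks.

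Detection of a member was also compared at equal depth, with cycling still called from all UMIs of a cell. Among thinned CD8 T cells, 51.2% (35.1 to 67.1) of Gzmb-positive cells were cycling against 18.9% (15.2 to 22.9) of Gzmb-negative cells at 12 weeks, and 42.1% (20.3 to 66.5) against 27.1% (20 to 35.1) at 7 weeks. For Gzmk these shares were 37.3% (28.6 to 46.7) in positive against 16.4% (12.6 to 20.7) in negative cells at 12 weeks, and 53.5% (37.7 to 68.8) against 20% (13.3 to 28.3) at 7 weeks. For Fasl they were 60.0% (36.1 to 80.9) against 20% (16.4 to 24.0) at 12 weeks, and 57.1% (18.4 to 90.1) against 27.6% (20.7 to 35.3) at 7 weeks. For Gzma they were 45% (23.1 to 68.5) against 20.7% (17 to 24.8) at 12 weeks. At 7 weeks they were 57.1% (18.4 to 90.1) against 27.6% (20.7 to 35.3) for Gzma. The intervals overlap at both ages for Gzma, and at 7 weeks for Gzmb and Fasl. They do not overlap at either age for Gzmk. For Ctsw the shares were 23.1% against 19.8% at 12 weeks and 25.2% against 37.5% at 7 weeks, and for Prf1 18.2% against 21.8% at 12 weeks, all with overlapping intervals.

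Granzymes were detected together in CD8 T cells more often than the product of their single shares gives. Gzmb and Gzmk shared 24 cells at 12 weeks, where the product gives 10.5, and 13 cells at 7 weeks, where it gives 5.01. Put another way, 58.5% of Gzmb-positive cells held Gzmk against 22.4% of Gzmb-negative cells at 12 weeks, and 68.4% against 20.8% at 7 weeks. Within CD8 T cells that were not cycling the pair still shared 12 cells where the product gives 4.11 at 12 weeks, and 7 where it gives 1.90 at 7 weeks. Gzma and Gzmb shared 9 cells at 12 weeks where the product gives 1.78.

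Of the pairs whose product gave at least 1 cell, 5 of 21 at 12 weeks and 3 of 17 at 7 weeks occurred at least 1.5 times as often as the product. The share of pairs of other genes past this limit was not computed, so these counts do not set the members apart. The pairs Gzmb with Gzmk, Gzma with Gzmk, and Gzmk with Fasl did so at both ages. No pair with Nkg7 or Ctsw did, and a gene found in nearly every cell, as Nkg7 is, cannot exceed the product by much. The median thinned CD8 T cell held 2 of the 8 members at both ages. Cells with 4 or more made up 19.0% of cycling CD8 T cells at 12 weeks (11.8 to 28.1) and 12.8% at 7 weeks (4.83 to 25.7), against 5.0% and 5.17% of those not cycling at 12 and 7 weeks.

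**Figure D4:**
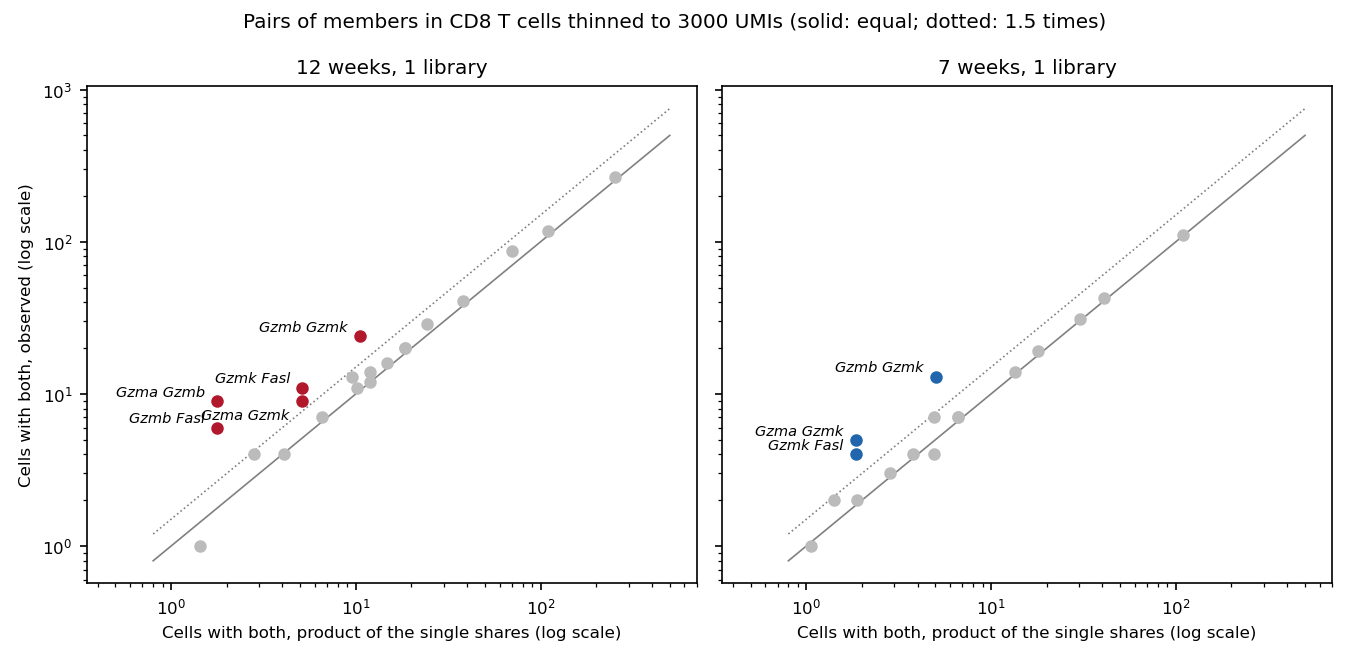
Number of thinned CD8 T cells that hold both genes of a pair (log scale) against the number that the product of the single shares gives (log scale), for pairs with a product of at least 1, at 12 weeks on the left and 7 weeks on the right. Coloured, named points lie at 1.5 times the product or more, 5 pairs at 12 weeks and 3 at 7 weeks, and the other pairs, in grey, lie under that limit.

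The genes most alike to each member across CD8 T cells were ranked by the smaller of the Pearson correlations in the 2 libraries, over 7135 genes that are no members. The points are 460 cells at 12 weeks and 171 at 7 weeks, which share a library and differ in depth. Ccl5, a chemokine of effector T cells, came first for Nkg7 with 0.68 at 12 weeks and 0.62 at 7 weeks, and for Gzmk with 0.65 and 0.53. For Nkg7 it was followed by S100a6, AW112010, Pdcd1 (the inhibitory receptor PD-1), Ccl4 and Sh2d2a. Gzmk was followed by S100a6, Lgals1, AW112010, Gimap7 and S100a10. Gzmb was closest to the galectin gene Lgals3, with 0.47 at 12 weeks and 0.42 at 7 weeks, then to S100a4, Ccl5, Tmsb4x, the chemokine receptor gene Cxcr6 and S100a6.

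All 8 members were higher in CD8 T than in CD4 T cells at both ages, by 1.5-fold or more, as 9.24% of all genes were at 12 weeks and 10.4% at 7 weeks. Nkg7 had 2352 CPM in CD8 T against 425 CPM in CD4 T cells at 12 weeks, a ratio of 5.53 (5.27 to 5.80), and 2039 against 467 CPM at 7 weeks, a ratio of 4.37 (4.09 to 4.67). Gzmb was 9.43-fold and 7.44-fold higher in CD8 T cells at 12 and 7 weeks, Gzmk 3.6-fold and 6.38-fold, and Ctsw 3.26-fold and 2.17-fold. Gzma was 28.4-fold higher in CD8 T cells at 12 weeks (20.1 to 41.4) and 3.24-fold at 7 weeks (2.46 to 4.29). Without the 5 richest cells of each class the Gzma ratio was 6.71 at 12 weeks and 0.691 at 7 weeks. At 7 weeks 5 of the 8 members were then still counted, since Gzma turned and Gzmm and Prf1 were left with under 10 UMIs. Prf1 had an interval that reached below 1 at 7 weeks, 2.82 (0.668 to 13.6).

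CD4 T cells carried Nkg7 and Ctsw in a minority of cells and Gzmk in fewer. At equal depth the 12 and 7 week shares of CD4 T cells were 29.5% and 36.2% for Nkg7, 20.3% and 31.8% for Ctsw, and 9.81% (7.86 to 12.0) and 4.37% (2.47 to 7.11) for Gzmk. In 54.6% and 45.2% of CD4 T cells no member was detected at 12 and 7 weeks, against 5.87% and 3.07% of CD8 T cells at 12 and 7 weeks. Of pairs with a product of at least 1, 10 of 14 at 12 weeks and 5 of 9 at 7 weeks exceeded it 1.5 times, again without a count over pairs of other genes. Gzmk and Nkg7 shared 49 CD4 T cells where the product gives 23.9 at 12 weeks, and 11 where it gives 5.42 at 7 weeks.

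Between ages, CD4 T cells had more Gzmk and less Ctsw and Gzma at 12 weeks. Gzmk had 52.7 CPM at 12 weeks against 26.5 at 7 weeks, or 1.99-fold (1.53 to 2.62), and 2.63 (1.85 to 3.83) in CD4 T cells that were not cycling. Ctsw had 118 CPM at 12 weeks against 196 at 7 weeks, or 0.598-fold (0.532 to 0.673). Gzma had 6.72 CPM at 12 weeks against 30.5 at 7 weeks, or 0.221-fold (0.144 to 0.332), and 0.390 without the 5 richest cells. Against B cells it was 1.68-fold (0.891 to 3.32) at 12 weeks, an interval that includes 1, so CD4 T Gzma at that age did not exceed background beyond counting error. In all, 2 members, Gzmk and Prf1, were 1.5-fold or more higher at 12 weeks, where 8.28% of all genes were, and 3, Gzma, Gzmm and Ctsw, were lower, where 13.4% were.

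Values that moved with these differences are given beside them. Gzmm and Prf1 rested on 7 and 12 UMIs at 12 weeks and 7 and 4 at 7 weeks, and their intervals include 1. Natural killer markers summed to 0.142 UMIs per 10000 in CD4 T cells at 12 weeks against 0.511 at 7 weeks, with none of the 7 markers at 0, and 5 and 12 CD4 T cells held an Ncr1 UMI at 12 and 7 weeks. In B cells Gzma had 4.0 CPM at 12 weeks against 11.9 CPM at 7 weeks, and Ctsw 10.1 and 40.9 CPM at 12 and 7 weeks, where 2 cells held 11 and 10 of the 48 Ctsw UMIs at 7 weeks. The part that free RNA or cells of another class had in the lower CD4 T values of Gzma and Ctsw was not tested. Nkg7 in CD4 T cells was 0.911-fold (0.850 to 0.977) at 12 weeks, but 1.09-fold with stricter co-receptor limits and 1.01-fold with cells weighted equally, so its direction depends on those settings.

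Gzmb in CD4 T cells was highest in those with Foxp3, which encodes the lineage factor of regulatory T cells. Foxp3-positive CD4 T cells numbered 58 at 12 weeks and 50 at 7 weeks. They had 48.6 CPM Gzmb against 14.2 CPM in the 768 Foxp3-negative cells at 12 weeks, a ratio of 3.43 (1.97 to 5.72), and 71.0 against 8.44 CPM in the 306 Foxp3-negative cells at 7 weeks, a ratio of 8.41 (4.70 to 15.5). A Gzmb UMI was present in 7 of 58 Foxp3-positive cells against 28 of 768 others at 12 weeks, and in 15 of 50 against 6 of 306 at 7 weeks. Gzmk went the other way, with 12.2 CPM in Foxp3-positive against 56.3 CPM in Foxp3-negative cells at 12 weeks and 19.7 against 28.0 CPM at 7 weeks. The Gzmk interval excludes 1 at 12 weeks, 0.216 (0.0695 to 0.510), and not at 7 weeks, 0.705 (0.322 to 1.38).

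The Ncr1 cells had more Gzma and Ctsw than CD8 T cells and less Gzmb and Gzmk. Gzma had 1624 CPM in Ncr1 cells against 191 CPM in CD8 T cells at 12 weeks, a ratio of 8.50 (7.58 to 9.54), and 1382 against 98.7 CPM at 7 weeks, a ratio of 14 (11.7 to 16.8). Ctsw was 3.16-fold and 1.84-fold higher in Ncr1 cells at 12 and 7 weeks. Gzmb had 41.3 CPM in Ncr1 against 160 CPM in CD8 T cells at 12 weeks, a ratio of 0.258, and 24.4 against 148 CPM at 7 weeks, a ratio of 0.165. Gzmk was represented by 1 UMI in all Ncr1 cells at 12 weeks and 11 at 7 weeks, and at 12 weeks its level equalled that of B cells within counting error (1.01-fold, 0.0234 to 6.93).

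Nkg7 differed little between Ncr1 and CD8 T cells. At 12 weeks it had 2716 CPM in Ncr1 against 2352 CPM in CD8 T cells, a ratio of 1.15 with an interval above 1. At 7 weeks the ratio was 1.03 (0.958 to 1.10), an interval that includes 1. Gzma, Gzmm, Prf1, Ctsw and Fasl were 1.5-fold or more higher in Ncr1 than in CD8 T cells at both ages, where 20.9% of all genes were at 12 weeks and 20% at 7 weeks. The interval includes 1 for Gzmm at both ages, with 8 UMIs in Ncr1 cells at 12 weeks and 9 at 7 weeks, and for Fasl at 7 weeks (0.897 to 3.19). Gzmb and Gzmk were 1.5-fold or more lower at both ages, where 25.3% of genes were at 12 weeks and 18.0% at 7 weeks. Gzma reached at least 10 UMIs in 11 of 64 Ncr1 cells against 6 of 460 CD8 T cells at 12 weeks, and in 15 of 73 against 3 of 171 at 7 weeks, and the richest Ncr1 cell held 106 UMIs at 12 weeks and 148 at 7 weeks.

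Detection of Gzma in Ncr1 cells differed by marker. Klra8 belongs to the Ly49 receptor family, whose near-identical copies may share reads. Among cells with a Klra8 UMI, 17 of 23 held Gzma at 12 weeks, 73.9%, against 5 of 41 without, 12.2%. At 7 weeks it was 19 of 25 with Klra8, 76.0%, against 6 of 48 without, 12.5%. The shares with and without Eomes, a factor of natural killer cells, were 55.6% against 26.1% at 12 weeks and 60.0% against 16.3% at 7 weeks. The opposite held for Cxcr6, with 18.2% against 51.6% at 12 weeks and 8.57% against 57.9% at 7 weeks, and for Il7r, with 7.69% against 52.6% at 12 weeks and 14.3% against 46.7% at 7 weeks. Klre1, Klrb1c and Klra4 went the way of Klra8 at both ages. The shares with and without Klre1 were 43.8% against 6.25% at 12 weeks and 52.2% against 3.70% at 7 weeks. For Klrb1c they were 51.9% against 21.6% at 12 weeks and 55.2% against 20.5% at 7 weeks. For Klra4 they were 47.2% against 17.9% at 12 weeks and 50% against 15.2% at 7 weeks. The remaining markers of the natural killer and type 1 innate lymphoid lists showed smaller or mixed differences. Xcl1 had 35.6% with against 20% without at 12 weeks and 33.3% against 38.5% at 7 weeks, and Itga1 12.5% against 37.5% at 12 weeks and 41.7% against 32.8% at 7 weeks. Itga2, a natural killer marker found in 4 cells at 12 weeks and 5 at 7 weeks, had 25% against 35% at 12 weeks and 40% against 33.8% at 7 weeks. The markers shown in the plot were chosen after their values were seen. Ctsw differed little by Eomes, since Ncr1 cells with Eomes had 1.01-fold and 1.05-fold the level of those without at 12 and 7 weeks, while Nkg7 was 1.81-fold and 1.57-fold higher with Eomes.

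**Figure D5:**
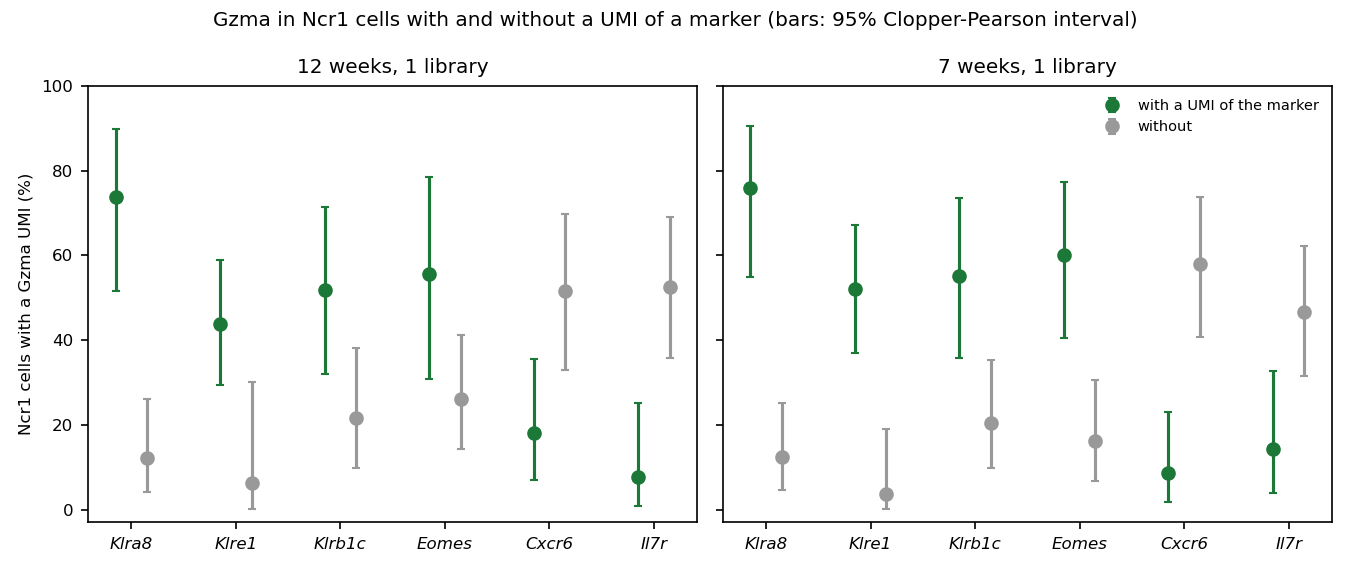
Share of Ncr1 cells with a Gzma UMI (%) among cells with (green) and without (grey) a UMI of each marker, at 12 weeks on the left and 7 weeks on the right, with 95% Clopper-Pearson intervals. Cells with Klra8, Klre1, Klrb1c or Eomes lie above those without, and cells with Cxcr6 or Il7r lie below, at both ages.

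Between ages, 4 of 8 members were 1.5-fold or more higher in Ncr1 cells at 12 weeks, where 15.6% of all genes were. These were Gzmb, Prf1, Ctsw and Fasl. Gzmk, at 1 against 11 UMIs, was the only member lower by that much, where 18.9% of genes were. Ctsw had 1213 CPM at 12 weeks against 784 at 7 weeks, or 1.55-fold (1.35 to 1.78). Nkg7 was 1.3-fold (1.19 to 1.42) and Gzma 1.17-fold (1.05 to 1.31) higher at 12 weeks. Among Ncr1 cells not cycling, Gzma was 1.06-fold (0.951 to 1.19), an interval that includes 1. There Nkg7 was 1.23-fold (1.12 to 1.34) and Ctsw 1.44-fold (1.25 to 1.65). The intervals for Gzmb, Prf1 and Fasl include 1, with 10 to 20 UMIs each at 12 weeks. Gzmm was 1.4-fold (0.469 to 4.08), from 8 UMIs at 12 weeks and 9 at 7 weeks, and its interval also includes 1. Without the 5 richest cells 1 of the 4, Fasl, was still counted, and Ctsw stood just under the limit. Fasl was in 18.8% of thinned Ncr1 cells at 12 weeks (10.1 to 30.5) and 7.04% at 7 weeks (2.33 to 15.7).

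Some granule transcripts lay in T cells outside the 2 co-receptor classes. Among cells with CD3 but no Cd4 or Cd8 UMI, Gzmb had 85 UMIs at 12 weeks and 1 at 7 weeks, in 342 and 188 cells, a ratio of 47.5 (8.30 to 1898). The 85 UMIs lay in 15 cells. Ctsw in the same cells was 0.575-fold of the 7 week level (0.485 to 0.682), close to its ratio in CD4 T cells. Their Gzma was 0.236-fold (0.130 to 0.412) and their Gzmk 2.39-fold (1.22 to 5.11). Cells with CD3 and UMIs of both co-receptors numbered 136 at 12 weeks and 58 at 7 weeks. They held 240 and 12 Gzma UMIs at 12 and 7 weeks, a ratio of 9.52 (5.35 to 18.7), and 142 and 23 Gzmk UMIs. Their Gzmb had 87 and 23 UMIs. Whether these cells are doublets was not tested.

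The genes around the granule were read from 6 lists, beside the 12.1% of all genes that were 1.5-fold or more higher and the 11.4% that were lower at 12 weeks in CD8 T cells. Of 12 genes of granule matrix and processing, 1 was 1.5-fold or more higher at 12 weeks, the protease gene Ctsl with 113 UMIs at 12 weeks against 9 at 7 weeks, and 1 lower, the membrane protein gene Cd63. Srgn, the proteoglycan core of the granule, had 709 CPM at 12 weeks against 648 CPM at 7 weeks, and Ctsd and Calr had ratios of 1.03 and 1.0. Of 11 measured genes of granule release, 1 was higher, Lyst at 1.59 (0.670 to 4.33), and none lower. Coro1a, Arpc2 and Vamp8, the most abundant of them, had ratios of 1.12, 1.09 and 1.0.

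Of 4 measured serpins on the list named for protection from granules, none was 1.5-fold higher. Only Serpinb1a, for which a role against granzymes was not tested, was lower, and it was 1 gene with 5 UMIs at 12 weeks and 15 at 7 weeks. Serpinb9, which inhibits granzyme B, had a ratio of 1.01, Serpinb6a of 1.26 and Serpinb6b of 0.699. Of 7 measured death ligands and receptors, 1 was lower, Lta at 0.640, while Ifng, Fas and Tnfrsf1b had ratios of 0.885, 1.25 and 0.765. Of 9 measured regulators, 1 was higher, Zeb2 at 1.90 (1.21 to 3.10), and Id2, Runx3 and Hopx had ratios of 1.24, 0.719 and 0.888. The 6 other granzyme genes, Gzmc to Gzmg and Gzmn, held at most 2 UMIs each in CD8 T cells of either age.

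In the contrast of CD8 T over CD4 T cells, 9.24% of all genes were 1.5-fold or more higher and 16.2% lower at 12 weeks, and 10.4% higher and 20.6% lower at 7 weeks. Of the 12 matrix genes 2 were 1.5-fold or more higher in CD8 T cells at 12 weeks and 3 lower, and at 7 weeks 1 was higher and 4 lower. Srgn itself had 0.643-fold and 0.520-fold the CD4 T level at 12 and 7 weeks. Of 11 measured release genes none was 1.5-fold higher in CD8 T cells at either age, and 1 was lower at 12 weeks and 2 at 7 weeks. Of 9 measured regulators 5 were higher and 1 lower at 12 weeks, and 3 higher and 1 lower at 7 weeks. Eomes was 14-fold and 13.1-fold higher in CD8 T cells at 12 and 7 weeks, Runx3 3.20-fold and 2.82-fold, and Hopx 2.51-fold and 2.21-fold. Against CD8 T cells, the Ncr1 cells had more of the granzyme inhibitors Serpinb9, 4.65-fold and 3.39-fold at 12 and 7 weeks, and Serpinb6b, 4.80-fold and 3.6-fold. The rest of the measured serpin list did not share this. In all, 2 of 3 serpins were 1.5-fold or more higher and 1 lower at 12 weeks, and 2 of 4 higher and 2 lower at 7 weeks. Among all genes 20.9% were higher and 25.3% lower at 12 weeks, and 20% higher and 18% lower at 7 weeks.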

How the data were processed

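Per the submitters' processing notes, Cell Ranger 1.3.1 and mm10 were used, and the authors deposited raw UMI counts per gene and barcode, without normalization, for 1 library per age. The libraries held 19288252 UMIs in 2812 barcodes at 12 weeks and 8701184 UMIs in 1113 barcodes at 7 weeks. The annotation and cell calling are not given in the sources used here.

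From these counts, barcodes with at least 200 genes and at most 10% mitochondrial UMIs were kept, which removed 8 of the 12 week and 4 of the 7 week barcodes. Doublet scores were computed against 2 simulated doublets per barcode (2000 variable genes, 30 principal components, seed 0). The top barcodes were then removed at 0.8% per 1000 deposited barcodes in both libraries alike, 63 at 12 weeks and 10 at 7 weeks. Classes came from marker UMIs, none of them a member. UMIs were summed per class. A gene was counted as differing at 1.5-fold or more with at least 10 UMIs over both sums. Ratios carry exact conditional binomial intervals, sums exact Poisson and shares Clopper-Pearson ones, all at 95% and for counting error only. With 1 library per age no p-value is given. A count of 0 allows up to 3 counts. Thinning to 3000 UMIs left out 53 shallower cells, all at 7 weeks, 8 of them CD8 T, 13 CD4 T, 2 Ncr1 and 6 B cells. The calculation was tested on simulated counts with known ratios.

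All 8 members are named, with the 6 genes most alike to Nkg7, Gzmb and Gzmk, and in each list the 3 most abundant genes and those past 1.5-fold. The members and lists were chosen with earlier results of these data known. In the contrast of CD8 T over CD4 T or Ncr1 over CD8 T cells the named list genes are examples chosen after their values were seen. Promoter windows were found in RefSeq for 7 of 8 members, all except Ctsw. Python 3.11.15, numpy 2.4.6, scipy 1.17.1, pandas 2.3.3 and scikit-learn 1.9.0 were used, with edgeR 4.0.16 under R 4.3.3 for TMM scaling as an alternative only.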

Additional observations from a re-analysis of the deposited data

Results flagged for a closer look

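For 4 members the ratio of 12 over 7 weeks lay on opposite sides of 1 in different classes, with each interval excluding 1. The difference between classes was not tested in any of these cases, since each class has 1 library per age.

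Gzma was higher at 12 weeks in CD8 T cells, 1.93-fold, and in Ncr1 cells, 1.17-fold, and lower in CD4 T cells, 0.221-fold. The Ncr1 value was 1.06 (0.951 to 1.19) without cycling cells, an interval that includes 1. The CD8 T value was 3.78 without the 5 richest cells, which left under 10 Gzma UMIs at 7 weeks. It was 0.783 without cells with over 20000 UMIs and 0.453 without cycling cells. The last rested on 1 cell at 7 weeks with 23 of 29 UMIs, and was 1.60 (0.640 to 4.77) without the richest remaining cell of each library.

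Gzmk was higher at 12 weeks in CD4 T cells, 1.99-fold, and lower in Ncr1 cells, 0.143-fold, the last from 1 UMI at 12 weeks and 11 at 7 weeks.

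Nkg7 was higher at 12 weeks in CD8 T cells, 1.15-fold, and in Ncr1 cells, 1.3-fold, and lower in CD4 T cells, 0.911-fold. That CD4 T value was 1.09 with stricter co-receptor limits and 1.01 with cells weighted equally, so the opposite direction does not hold under those settings. Ctsw was higher at 12 weeks in Ncr1 cells, 1.55-fold, and lower in CD8 T cells, 0.901-fold, and in CD4 T cells, 0.598-fold. B cells, used as background, also had lower Ctsw at 12 weeks, 0.248-fold (0.157 to 0.387), and 0.316-fold among B cells not cycling. Their Nkg7 was 0.686-fold (0.535 to 0.887) over all B cells. Among B cells not cycling Nkg7 was 1.06-fold, with an interval that includes 1. At 7 weeks 9 cycling B cells held 45 of the 93 Nkg7 UMIs of B cells. The part of background in the CD4 T values was not tested.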

How the results depend on the processing

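Of 351 ratios of single members under the alternatives, 293 stayed within their counting interval, 54 moved past it on the same side of 1 or from a ratio under 1.5-fold, and 4 ratios past 1.5-fold turned. Those 4 were Gzma, 0.453 and 0.783 for CD8 T cells by age without cycling cells and without cells over 20000 UMIs, 0.691 for CD8 T over CD4 T cells at 7 weeks without the 5 richest cells, and 0.585 for cycling over other CD8 T cells at 7 weeks without the 5 richest cells. The ratio of 0.585 was left with under 10 Gzma UMIs over both groups and does not set a direction. In all, 18 ratios lay on the other side of 1, 4 of Gzma, 5 each of Gzmb and Fasl, 2 of Nkg7 and 1 each of Gzmm and Prf1. Among them, CD8 T Gzmb by age was 0.899 with cells weighted equally, 0.850 without cycling cells and 0.504 without cells over 20000 UMIs, and CD4 T Nkg7 was 1.01 with cells weighted equally and 1.09 with stricter co-receptor limits. The cause was not tested.

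Counts of members past 1.5-fold moved as follows. In CD8 T cells by age, 1 in place of 2 was higher with cells weighted equally, without cycling cells, at 2-fold and without cells over 20000 UMIs, and 1 in place of 0 was lower without cycling cells or without cells over 20000 UMIs. In CD4 T cells, 1 in place of 2 was higher without the 5 richest cells or with stricter co-receptor limits, and at 2-fold 0 were higher and 1 in place of 3 was lower. In Ncr1 cells, 1 in place of 4 was higher without the 5 richest cells and 0 at 2-fold, and 0 in place of 1 were lower without the 5 richest or without cycling cells. CD8 T over CD4 T cells at 7 weeks gave 5 in place of 8 without the 5 richest cells. With cycling called by Mki67 or Top2a, 2 in place of 1 were lower at 12 weeks and 2 in place of 4 higher at 7 weeks, and 1 in place of 2 was lower at 7 weeks with cells weighted equally or without the 5 richest. Pairs past 1.5 times the product in CD8 T cells numbered 11 in place of 5 at 12 weeks without thinning, and at 7 weeks 7 without thinning and 5 at 5000 UMIs in place of 3.

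The CD8 T age ratio of Gzma was also 1.15 with cells weighted equally, and 1.60 without cycling cells and the richest remaining cell of each library. It was 3.78 without the 5 richest, with under 10 Gzma UMIs left at 7 weeks. No paired analysis was possible because each age has 1 library and the labels share no replicate numbers. Depth limits Gzmm, Prf1 and Fasl most, with 6 to 70 UMIs per library in CD8 T cells.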
